A study of Mus musculus with 4 samples.

Results

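Copper handling and metallothionein genes were followed through single-cell libraries of mouse brain. The 9 genes are Mt1, Mt2, Slc31a1, Slc31a2, Atp7a, Atox1, Ccs, Sod1 and Commd1. They were taken by symbol from the 32285 genes of the deposited feature lists, and the choice was made with earlier results of these data known. All 9 were found and had enough counts to be tested in microglia. Each library came from CD45+CD11b+ cells sorted from the brain of 1 mouse, with 2 PRMT1FL mice and 2 PRMT1Cx3cr1-KO mice. Both groups carry floxed alleles of Prmt1, the gene of an arginine methyltransferase, on the C57BL/6 background. In PRMT1Cx3cr1-KO mice the tamoxifen-inducible recombinase Cx3cr1-CreERT deletes these alleles. Its driver, Cx3cr1, is active in microglia and in other resident macrophages. All 4 mice were given tamoxifen and then a diet with 0.2% cuprizone (CPZ) for 5 wk. The labels put the mice at 5 to 6 wk of age when the diet began, whereas the study's methods put the tamoxifen at that age and the diet later. Since every mouse received the diet, the data hold no level of these genes without CPZ, and the comparisons are those between genotypes, between cell states and between cell types.

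CPZ is a copper chelator whose prolonged feeding strips myelin from the brain. Copper enters cells through Ctr1, the product of Slc31a1. Its relative Ctr2, the product of Slc31a2, lies mainly in endosomes and lysosomes. The chaperone Atox1 hands copper to the pump Atp7a, which fills secreted copper enzymes and exports excess, and Ccs hands it to the superoxide dismutase Sod1. Metallothioneins are small cysteine-rich proteins that bind zinc and copper, and their genes are switched on by the metal-responsive factor Mtf1, which binds metal response elements (MREs), and by glucocorticoids. Commd1 belongs to the COMMD proteins, which take part in the sorting of copper pumps between endosomes and the cell surface.

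The promoters of both metallothionein genes are shown because these genes are the textbook targets of Mtf1 and because they gave the lowest p-values of the 9 genes. The windows run from 250 bases before to 50 bases after the start of the gene in RefSeq (build GRCm38.p6), 5′ to 3′ on the + strand, at chr8:94178839-94179138 for Mt1 and chr8:94172368-94172667 for Mt2. Capitals mark each match to the MRE core, searched as TGCACNC or TGCGCNC on both strands, so that a match on the opposite strand reads GNGTGCA or GNGCGCA.
Mt1 promoter: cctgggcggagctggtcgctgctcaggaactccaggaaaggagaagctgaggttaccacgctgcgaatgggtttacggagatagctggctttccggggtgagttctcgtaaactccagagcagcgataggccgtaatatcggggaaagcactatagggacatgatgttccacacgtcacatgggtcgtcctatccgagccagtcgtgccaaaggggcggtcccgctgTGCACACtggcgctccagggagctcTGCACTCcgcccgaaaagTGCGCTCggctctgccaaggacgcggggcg
Mt2 promoter: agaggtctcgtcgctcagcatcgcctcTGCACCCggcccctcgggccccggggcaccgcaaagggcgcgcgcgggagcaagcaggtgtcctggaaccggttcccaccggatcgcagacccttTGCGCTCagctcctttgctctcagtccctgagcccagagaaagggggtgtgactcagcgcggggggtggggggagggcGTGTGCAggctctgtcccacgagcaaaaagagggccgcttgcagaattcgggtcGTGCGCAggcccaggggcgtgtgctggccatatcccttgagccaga

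The Mt1 window held 3 matches and the Mt2 window 4. Among all 32851 windows of this length in the RefSeq table, 25.7% held at least 1 match, 1.97% held 3 or more and 0.517% held 4 or more. Of the 9 genes 8 had a window there. The Atp7a window held 2 matches, the Slc31a2 window 1 and each of the 2 Commd1 windows 1, whereas those of Slc31a1, Atox1 and Sod1 held none. The antioxidant response element (TGACNNNGC, in 12.4% of all windows) was matched in the windows of Mt2, Slc31a2, Atox1 and Sod1 and in 1 of the Commd1 windows. The E-box CACGTG, in 7.15% of all windows, was matched in those of Slc31a2 and Atp7a. A match describes these letters only and is not a measured binding site.

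The libraries held 8284 to 11554 barcodes, of which 7808 to 10971 passing cells per mouse were counted as microglia, with 72837125 to 93656380 unique molecular identifiers (UMIs) in these cells. A UMI tags 1 captured RNA molecule at its 3′ end. Levels are given as CPM, the UMIs of a gene as a share of all UMIs in the same cells on the usual scale, so that genes can be compared without a correction for length. Genes that define microglia were present in all mice. P2ry12 stood at 403 and 462 CPM in PRMT1FL microglia, against 537 and 584 CPM in PRMT1Cx3cr1-KO microglia. Cx3cr1, the gene of the Cre driver, stood at 1444 and 1542 CPM in PRMT1FL microglia, against 847 and 837 CPM in PRMT1Cx3cr1-KO microglia. The part of this lower Cx3cr1 level in the results was not tested. Prmt1 stood at 93.3 and 86.1 CPM in PRMT1FL microglia and at 69.8 and 67.6 CPM in PRMT1Cx3cr1-KO microglia (log2 fold change -0.39, adjusted p = 0.0728 from edgeR). UMIs summed per gene do not separate intact from recombined alleles. Haemoglobin UMIs, a sign of RNA from red blood cells, summed to 241 and 93.8 CPM in microglia of PRMT1FL mice. In those of PRMT1Cx3cr1-KO mice they summed to 0.0614 and 0.0214 CPM. They were not even over the microglia and stood highest in the Ube2c-led state described below. Red blood cell markers were not used to set cells apart from microglia, so cells of that lineage may be among those counted. Pairs of libraries shared 31 to 46 barcodes, at most 0.555% of the smaller library. The part of the haemoglobin RNA in the results was not tested. Each group has 2 mice. The p-values rest on the spread between these mice, with the spread of each gene drawn toward that of the other genes tested.

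In microglia Atox1 and Mt1 were the most abundant of the 9 genes and Mt2 the least. Atox1 lay at 683 to 764 CPM over the 4 mice and Mt1 at 411 to 497 CPM, against 6.67 to 11.8 CPM for Mt2. The other 6 genes lay between 20.5 CPM (the lowest mouse for Atp7a) and 74.5 CPM (the highest for Sod1). In every mouse the copper chaperone Atox1 was the most abundant and its partner pump Atp7a the rarest apart from Mt2.

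No member passed the test between the genotypes over all microglia. By the quasi-likelihood test of edgeR, adjusted after Benjamini and Hochberg over the 13808 genes tested, 109 genes (0.789%) passed an adjusted p of 0.05, and none of the 9 was among them. At an unadjusted p under 0.05 there were 2, Mt1 and Mt2, beside 19.9% of all tested genes. DESeq2 called none of the 9 either, beside 5.36% of the genes it tested.

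**Figure D1:**
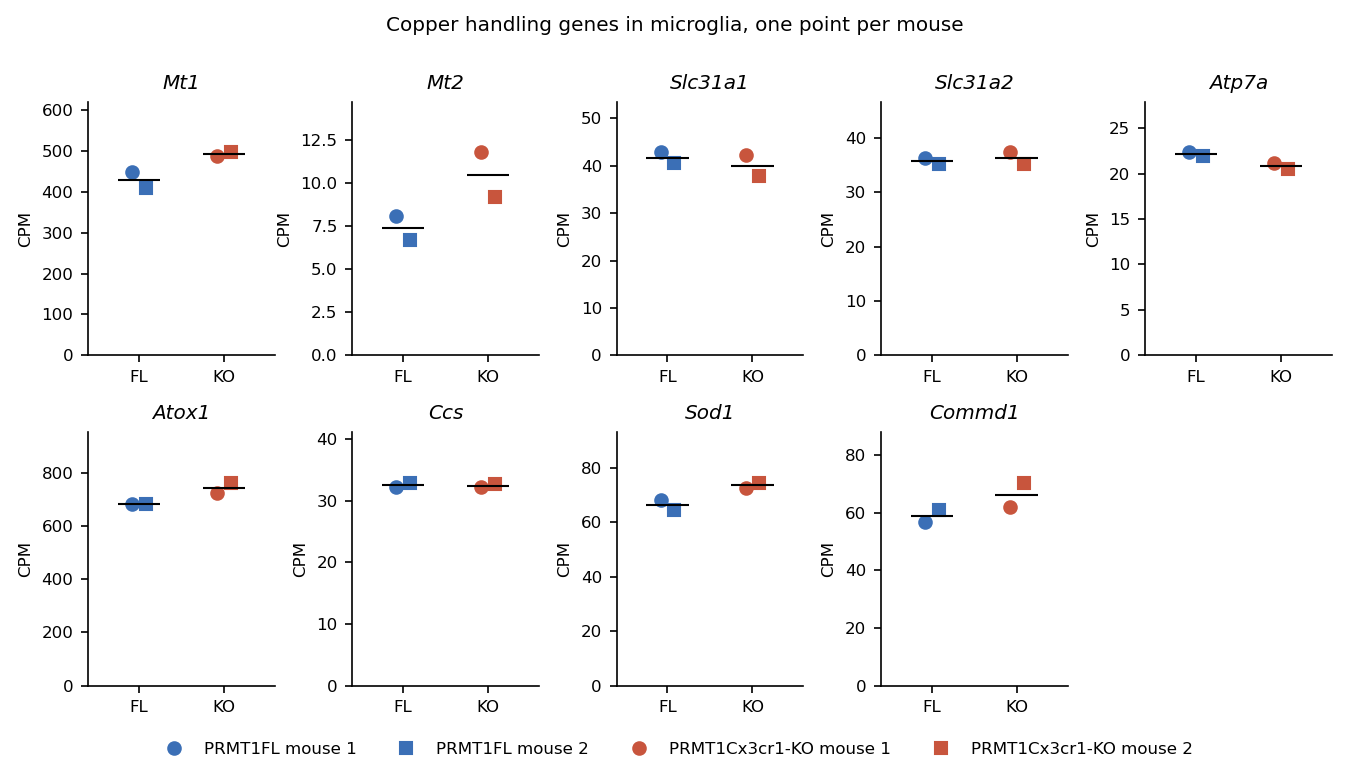
Level of each of the 9 genes in microglia, in CPM on linear axes that start at 0, with 1 point per mouse and a bar at the mean of the 2 mice of a genotype. Mt1, Mt2, Atox1, Sod1 and Commd1 lie higher in both PRMT1Cx3cr1-KO (KO) mice than in both PRMT1FL (FL) mice, and Atp7a lies lower.

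Mt1 (ENSMUSG00000031765, chromosome 8 of mm10, 94179082 to 94180327) measured 448 and 411 CPM in PRMT1FL mice, against 489 and 497 CPM in PRMT1Cx3cr1-KO mice. The groups did not overlap, and the log2 fold change was 0.20 (SE 0.07, adjusted p = 0.216 from edgeR). Mt2 (ENSMUSG00000031762, 94172664 to 94173568 on the same chromosome), its neighbour and close paralog, was found at 8.08 and 6.67 CPM in PRMT1FL mice, against 11.8 and 9.17 CPM in PRMT1Cx3cr1-KO mice. Here too both PRMT1Cx3cr1-KO mice lay above both PRMT1FL mice, with a log2 fold change of 0.50 (SE 0.15, adjusted p = 0.150 from edgeR). The Mt2 value depended on the cells and the genes entered. It was called without a filter on low counts (0.51, adjusted p = 5.1e-04 from edgeR) and when PRMT1Cx3cr1-KO mouse 2 was left out (0.67, adjusted p = 0.00204), and summed over every cell of the sort it was -0.11 (adjusted p = 0.707). Astrocyte-like cells, which are described below and leave out some cells with astrocyte markers, were held by the sort in unequal numbers. They account for 345 and 239 Mt2 UMIs in PRMT1FL mice, against 8 and 15 in PRMT1Cx3cr1-KO mice. The microglia held 693, 473, 966 and 898 Mt2 UMIs.

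The import and export genes lay close together in the 4 mice. Slc31a1 (ENSMUSG00000066150, chromosome 4, 62360727 to 62391769) stood at 42.8 and 40.6 CPM in PRMT1FL mice, against 42.2 and 37.8 CPM in PRMT1Cx3cr1-KO mice, with overlap between the groups (log2 fold change -0.06, SE 0.08). Slc31a2 (ENSMUSG00000066152, chromosome 4, 62262562 to 62298411) gave 36.4 and 35.2 CPM against 37.4 and 35.2 CPM, the smallest difference among the transporters (0.02, SE 0.07). For Atp7a (ENSMUSG00000033792, chromosome X, 106027276 to 106124926) the values were 22.3 and 21.9 CPM in PRMT1FL mice, against 21.2 and 20.5 CPM in PRMT1Cx3cr1-KO mice. Atp7a was the only one of the 9 genes to lie lower in both PRMT1Cx3cr1-KO mice, by a log2 fold change of -0.09 (SE 0.06, adjusted p = 0.481 from edgeR).

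Among the chaperones, Atox1 (ENSMUSG00000018585, chromosome 11, 55446641 to 55461239) was found at 683 and 685 CPM in PRMT1FL mice, against 727 and 764 CPM in PRMT1Cx3cr1-KO mice. That is a log2 fold change of 0.12 (SE 0.07, adjusted p = 0.374 from edgeR) between groups that did not overlap. Ccs (ENSMUSG00000034108, chromosome 19, 4825366 to 4839332) was the most even gene of the set, at 32.2 and 32.9 CPM against 32.2 and 32.7 CPM. Its target Sod1 (ENSMUSG00000022982, chromosome 16, 90220754 to 90226329) had 68.1 and 64.3 CPM in PRMT1FL mice, against 72.4 and 74.5 CPM in PRMT1Cx3cr1-KO mice (0.15, SE 0.06, adjusted p = 0.268 from edgeR), again without overlap. Commd1 (ENSMUSG00000051355, chromosome 11, 22896136 to 22982382) had 56.8 and 60.9 CPM against 61.9 and 70.5 CPM (0.17, SE 0.08, adjusted p = 0.320), and it passed when PRMT1Cx3cr1-KO mouse 1 was left out (0.27, adjusted p = 0.0181 from edgeR). Both PRMT1Cx3cr1-KO mice lay above both PRMT1FL mice for 5 of the 9 genes (Mt1, Mt2, Atox1, Sod1 and Commd1), a pattern that 26.0% of all tested genes showed. In the annotation Commd1 overlaps another protein-coding gene, Gm28048, on its own strand, so its level is uncertain, while Mt2, Slc31a1 and Sod1 overlap a gene on the opposite strand.

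Mt1 RNA was spread over most microglia but unevenly. A UMI of Mt1 was found in 74.0 to 76.3% of the microglia of a mouse and a UMI of Atox1 in 86.7 to 89.1%. With each cell thinned to 1000 UMIs these shares were 28.1 to 32.5% and 44.7 to 52.0%. Neutrophil-like cells, taken as a comparison for free RNA, had a UMI of Mt1 in 20% of 75 cells without thinning, at a median depth of 4544 UMIs against 6223 to 7069.5 in microglia. The median microglial cell held 2 UMIs of Mt1 in every mouse, the 95th percentile 12 to 17 and the highest cell 82 to 132. The tenth of microglia richest in Mt1 held 41.7 to 45.6% of its UMIs, and 51.3 to 53.8% after thinning. The share without thinning also follows the depth of the cells. After thinning the mean was 0.37 to 0.49 UMIs a cell, so an evenly spread gene would also have a large share there. That share was not computed. Counts of Mt1 after thinning varied more than a Poisson count would, with a variance of 1.33 to 1.78 times the mean.

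Mt2 was sparse, with a UMI in 4.28 to 6.43% of microglia, but it was not spread evenly over cells of high and low Mt1. In cells with 3 or more thinned UMIs of Mt1 its level was 44.9 to 48.5 CPM, and in cells without one it was 4.89 to 7.33 CPM. The thinned draw served only to sort the cells, and every mouse showed the same order. Over all microglia there were 41.5 to 61.6 UMIs of Mt1 for each UMI of Mt2. Among the rest, Sod1 was seen in 34.5 to 41.0% of microglia and Commd1 in 31.6 to 41.1%, whereas Atp7a was seen in 14.7 to 16.7%. Of the 9 genes 3 had a higher share of cells in both PRMT1Cx3cr1-KO mice without thinning, beside 17.4% of all tested genes, and 6 had one after thinning, beside 29.9%.

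The genes were then followed across 7 microglial states, found by clustering cells without the 9 genes, the other listed genes and 749 genes that differed between genotypes. Of these, 3 could be named from markers: D/E-like cells (5238 cells, led by Il7r, Crybb1, Adgrg1 and P2ry12), dividing A1-like cells (1682 cells, led by Mki67) and cells with interferon-response genes (498 cells, led by Rsad2). The others are called by a leading gene: Il12b-led (6689 cells), Mmp12-led (9731 cells), Gpnmb-led (7507 cells) and Ube2c-led (7651 cells). A further 2 small groups of microglia (281 and 315 cells) were not fitted. The Ube2c-led cluster was led first by haemoglobin genes, with Ube2c after them. Haemoglobin genes stood at 1790 and 922 CPM in its PRMT1FL cells, against 0 in its PRMT1Cx3cr1-KO cells. At a higher resolution Ube2c led a cluster of 982 cells and haemoglobin genes led another of 6657 cells. Over the mice Atox1 stood at 1015 to 1283 CPM in the former and at 1093 to 1240 CPM in the latter. The name is a label and does not mean that all cells of this state divide. D/E-like cells were the shallowest of the states (median 3108 UMIs) and A1-like cells the deepest (12950.5).

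By the mean over the 4 mice both metallothionein genes were highest in Il12b-led cells and lowest in D/E-like cells. In PRMT1FL mice alone the mean of Mt1 was higher in Ube2c-led cells (546 CPM) than in Il12b-led cells (518 CPM). Mt1 ranged over the mice from 500 to 634 CPM in Il12b-led cells, whose other leading genes are Tnfsf9, Dusp2 and Cxcl2, and from 143 to 369 CPM in D/E-like cells, a ratio of the means of 2.14. For Mt2 the ranges were 9.82 to 15.9 CPM and 0.5001 to 6.68 CPM, a ratio of 3.95. In every mouse the level in Il12b-led cells exceeded that in the other microglia of that mouse, by 0.21 to 0.49 for Mt1 and 0.37 to 0.72 for Mt2 on the log2 scale with 1 CPM added. In D/E-like cells both genes lay below the other microglia in every mouse, by -1.55 to -0.47 for Mt1 and -2.39 to -0.81 for Mt2. For both genes the ranges of each of the 6 neighbouring pairs in the order of states overlapped, whereas the highest and the lowest state did not.

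The copper transporters showed other orders. Slc31a1 was even, at 33.8 to 45.4 CPM over the mice in 6 of the 7 states, and stood out in interferon-like cells with 62.9 to 75.3 CPM. That is 0.68 to 0.84 above the other microglia of the same mouse on the log2 scale, and the ranges of these cells and of the next state did not overlap. Slc31a2 and Atp7a shared the D/E-like cells as their highest state and the Ube2c-led cells as their lowest. Slc31a2 stood at 55.8 to 84.3 CPM in D/E-like cells and at 23.2 to 25.4 CPM in Ube2c-led cells, a ratio of 2.79. Atp7a had the widest spread of the 9 genes, with 30.0 to 40.7 CPM in D/E-like cells and 4.65 to 8.87 CPM in Ube2c-led cells, a ratio of 5.08. In Ube2c-led cells Atp7a lay below the other microglia by -2.07 to -1.36 on the log2 scale, in all 4 mice.

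Atox1 and its partner pump had their highest and lowest states exchanged. It was highest in Ube2c-led cells, at 1105 to 1241 CPM, and lowest in D/E-like cells, at 322 to 466 CPM, a ratio of 2.91. The next state below the Ube2c-led cells did not overlap with them, and the Mmp12-led cells did not overlap with the D/E-like cells. Sod1 and Commd1 were highest in dividing A1-like cells, at 87.0 to 93.1 CPM and 83.4 to 102 CPM, and lowest in D/E-like cells, at 48.9 to 66.8 CPM and 37.1 to 48.3 CPM. Ccs differed least, with means that ran only 1.13-fold from its lowest state to its highest and with overlap between every neighbouring pair. These levels are descriptions without a test, and the states also differed in depth, as given above.

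**Figure D2:**
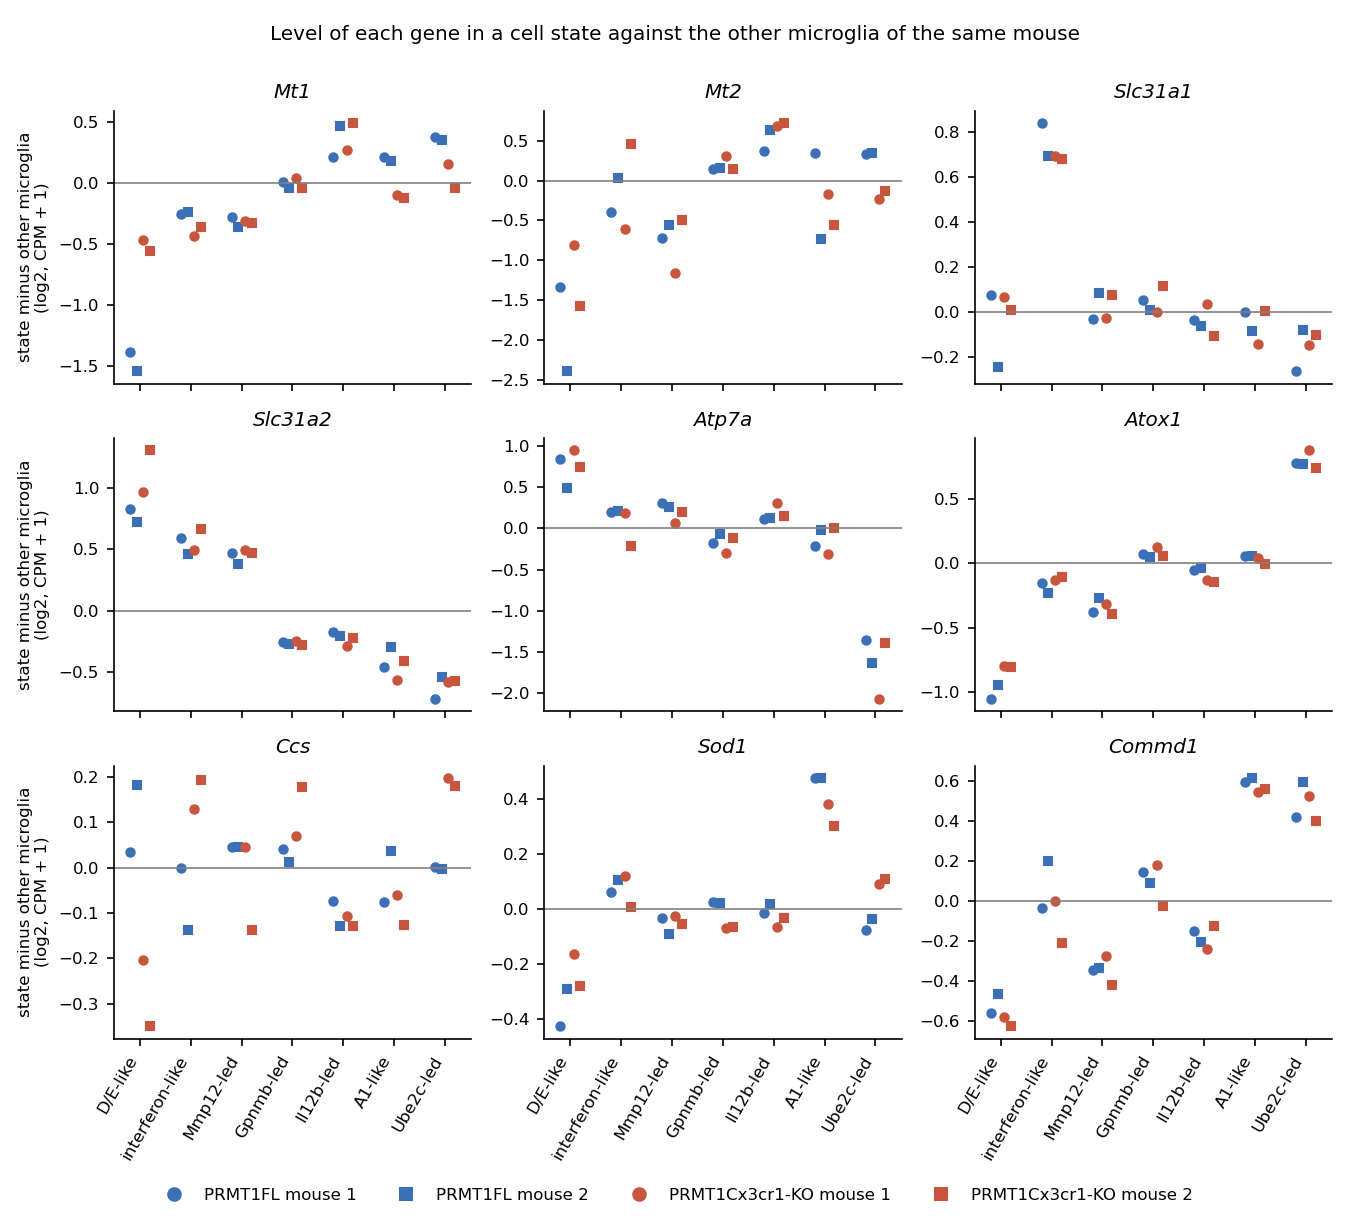
Level of each gene in a cell state minus its level in all other microglia of the same mouse, as the difference of log2(CPM + 1), with 1 point per mouse and separate vertical scales. On average over the mice, D/E-like cells lie lowest for Mt1, Mt2, Atox1, Sod1 and Commd1 and highest for Slc31a2, and Ube2c-led cells lie lowest for Atp7a and highest for Atox1.

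Across the 28 sums of a mouse and a state, the genes most like Mt1 were Uap1l1 (Pearson's r = 0.955), Capg (0.928), Anxa2 (0.922), Aldh2 (0.881) and Aldoa (0.880), among 5295 genes with a mean of at least 20 CPM, which leaves out Mt2. Of the 9 genes Atox1 came nearest to Mt1 (0.784), followed by Sod1 (0.619) and Commd1 (0.612). Slc31a2 (-0.65) and Atp7a (-0.51) ran the other way, and Ccs (-0.12) and Slc31a1 (-0.13) were near 0. The sums share mice and libraries, and the values are a description across them.

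The genotypes were next compared inside each state. Differences among the 9 genes were called in D/E-like cells and, for Mt2 alone, in Il12b-led cells. In D/E-like cells 2027 of 10712 genes (18.9%) passed the edgeR test, 10.0% higher and 8.92% lower in PRMT1Cx3cr1-KO mice. Of the 9 genes 4 passed it, each higher in PRMT1Cx3cr1-KO mice: Mt1, Slc31a2, Atox1 and Sod1. Prmt1 itself stood at 88.0 and 74.0 CPM in D/E-like cells of PRMT1FL mice, against 55.3 and 43.2 CPM in those of PRMT1Cx3cr1-KO mice. It passed there, with a log2 fold change of -0.73 (adjusted p = 0.00105 from edgeR). No gene of the 9 was called in the other 5 states, in which 2.78% (Mmp12-led), 4.07% (Ube2c-led), 0.358% (A1-like), 1.61% (Gpnmb-led) and 0.779% (interferon-like) of the genes tested were called.

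Mt1 measured 168 and 143 CPM in D/E-like cells of PRMT1FL mice and 369 and 358 CPM in those of PRMT1Cx3cr1-KO mice. The log2 fold change was 1.23 (SE 0.10, adjusted p = 8.3e-07 from edgeR), and it lay between 1.11 and 1.35 with any mouse left out. It rested on 652, 570, 1712 and 2104 UMIs. The genotype effect on Mt1 exceeded that in all other microglia by 1.05 on the log2 scale (SE 0.12, adjusted p = 0.0205 from limma), a difference that 4.95% of genes passed. In each of the other states the limma test of the difference called 0.0% of the genes tested. Mt2 followed at 2.57 and 0.5001 CPM against 6.68 and 2.72 CPM, from 10, 2, 31 and 16 UMIs, and did not pass (1.55, SE 0.59, adjusted p = 0.0774 from edgeR). With so few UMIs the Mt2 value was called without PRMT1FL mouse 1 (3.12) or without PRMT1Cx3cr1-KO mouse 2 (2.11).

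Slc31a2 stood at 60.7 and 55.8 CPM in D/E-like cells of PRMT1FL mice and at 72.1 and 84.3 CPM in those of PRMT1Cx3cr1-KO mice (log2 fold change 0.43, SE 0.11, adjusted p = 0.0139 from edgeR). Atox1 stood at 322 and 358 CPM against 440 and 466 CPM (0.41, SE 0.10, adjusted p = 0.00719). For Sod1 the levels were 48.9 and 52.0 CPM against 66.8 and 64.4 CPM (0.38, SE 0.11, adjusted p = 0.0230). All 3 genes were without overlap between the genotypes, but the share of all genes with that pattern in these cells was not counted. Each call was lost in places: that of Slc31a2 without PRMT1FL mouse 2 (adjusted p = 0.149) or PRMT1Cx3cr1-KO mouse 2 (0.109), that of Atox1 without PRMT1FL mouse 1 (0.0800) and that of Sod1 without PRMT1FL mouse 1 (0.152) or mouse 2 (0.0874), each by edgeR. DESeq2 called Mt1 and Atox1 only, beside 6.73% of the genes it tested, and edgeR with the replicate number as a block called 5 of the 9, beside 25.3%. Slc31a1, Atp7a, Ccs and Commd1 gave log2 fold changes of 0.14, 0.15, -0.29 and 0.18 in these cells.

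In Il12b-led cells Mt2 was found at 10.0 and 9.82 CPM in PRMT1FL mice, against 15.9 and 13.5 CPM in PRMT1Cx3cr1-KO mice. The log2 fold change was 0.57 (SE 0.12, adjusted p = 0.0477 from edgeR), beside 2.38% of genes called in these cells. Leaving out either PRMT1FL mouse or PRMT1Cx3cr1-KO mouse 1 ended the call (adjusted p = 0.253, 0.231 and 0.0707). Its neighbour Mt1 gave 0.19 there (adjusted p = 0.348). In Ube2c-led cells, by contrast, Mt1 had 575 and 517 CPM in PRMT1FL mice, against 536 and 474 CPM in PRMT1Cx3cr1-KO mice (-0.11, adjusted p = 0.586).

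The size of the Mt1 difference depended on which cells were taken as D/E-like. The clustering was repeated with 5 other random seeds, and each time the cluster highest in the D and E markers was taken. These clusters held 1061 to 8537 cells, and 61.2 to 100% of their cells lay in the first D/E-like cluster. The log2 fold change of Mt1 in them was -0.11 (adjusted p = 0.814), 0.46 (0.0140), 0.18 (0.272), 0.15 (0.372) and 0.56 (0.00235) by edgeR, so that 2 of the 5 passed the test and 1 had the opposite sign. The difference of the effect from that in other microglia passed in none of them, at -0.26 to 0.40 (adjusted p = 0.116 to 0.969 from limma), where this test called 0.0135, 0.162, 0.0, 0.0 and 1.02% of all genes for seeds 1 to 5. Without any clustering, in microglia with 5 or more UMIs of the D markers Tmem119, Selplg, Siglech and Sox4 after thinning, Mt1 measured 251 and 214 CPM in PRMT1FL mice, against 356 and 469 CPM in PRMT1Cx3cr1-KO mice. The log2 fold change there was 0.83 (SE 0.14, adjusted p = 0.00956 from edgeR, beside 5.64% of genes called), and its difference from other microglia was 0.65 (adjusted p = 0.231 from limma, beside 0.0% of genes called). The share of D/E-like cells with a UMI of Siglech differed between the genotypes, as given below, so this cutoff may take unlike cells in them. These alternatives were chosen after the first result was seen. On simulated sums of the first D/E-like cluster, limma called 0% of genes changed 1.5-fold, 34% changed 2-fold and 100% changed 4-fold. That simulation drew the cluster and the other microglia independently, with a common dispersion for all genes. It did not cover the other seeds or genes of few UMIs. What the test misses in these data is therefore not known.

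Atox1 and Slc31a2 moved less with the choice of cells. Over the 5 seeds the log2 fold change of Slc31a2 was 0.41 to 0.50 and called in 4, but in cells with 5 or more UMIs of the D markers it was 0.09 (adjusted p = 0.710 from edgeR). That of Atox1 was 0.21 to 0.46 and called in 3, and in the cells taken by D markers it was 0.50 (adjusted p = 0.0298). Sod1 was called in none of the 5 seeds, at 0.16 to 0.54. Of all genes 7.31, 13.4, 11.4, 11.2 and 15.5% were called in the clusters of seeds 1 to 5. In the cells taken by D markers Mt2 (1.93, adjusted p = 0.0190) and Commd1 (0.49, adjusted p = 0.0446) were called as well.

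**Figure D3:**
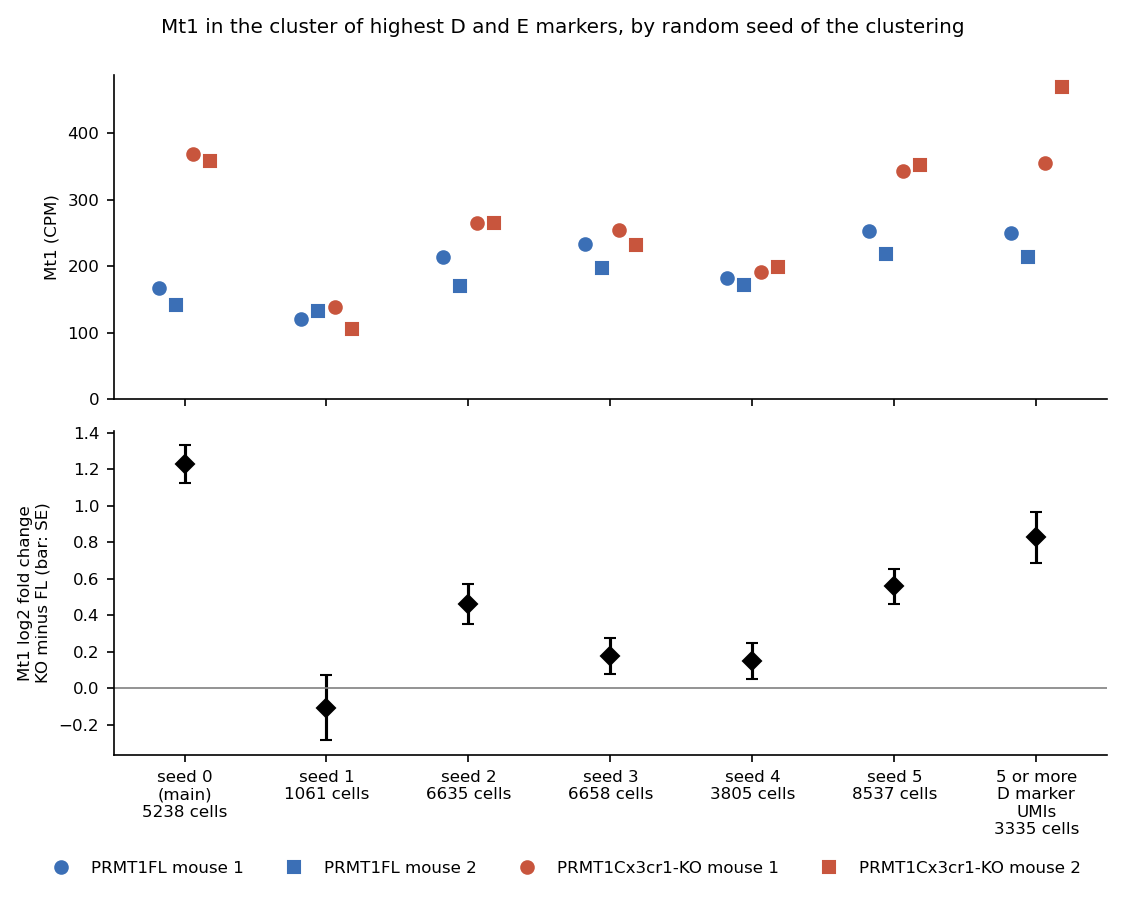
Mt1 in the cluster highest in the D and E markers for 6 random seeds of the clustering, and in microglia with 5 or more UMIs of the D markers; the upper panel gives CPM with 1 point per mouse and the lower panel the edgeR log2 fold change between genotypes with its SE. The fold change runs from -0.11 with seed 1 to 1.23 with seed 0, the clustering used for the cell states.

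At a higher resolution most D/E-like cells fell into a D-like cluster (4762 cells, led by Il7r and Crybb1) and an E-like cluster (1542 cells, led by Gdf15, Tnf and Tnfaip2). The E-like cluster held 197 and 136 PRMT1FL cells against 673 and 536 PRMT1Cx3cr1-KO cells. Mt1 measured 163 and 137 CPM in D-like cells of PRMT1FL mice and 201 and 209 CPM in those of PRMT1Cx3cr1-KO mice (log2 fold change 0.46, adjusted p = 0.00682 from edgeR, beside 16.7% of genes called). In E-like cells it measured 355 and 322 CPM against 533 and 655 CPM (0.81, adjusted p = 2.0e-04 from edgeR, beside 7.72% of genes called). The difference of this effect from that in other microglia passed in neither cluster by limma. It was 0.28 (adjusted p = 0.370) in D-like cells and 0.66 (adjusted p = 0.242) in E-like cells. Another cluster also had the E markers as its highest list (4203 cells, led by Cxcl1 and Tnfsf9) but held 0 D/E-like cells. Mt1 gave a log2 fold change of 0.17 there (adjusted p = 0.451 from edgeR, with 256 genes called). The level of Mt1 was higher in E-like than in D-like cells in each mouse, and the E-like cells were more numerous in PRMT1Cx3cr1-KO mice. In D-like cells Atox1 (0.58, adjusted p = 8.96e-04), Slc31a2 (0.48, adjusted p = 0.00962) and Sod1 (0.41, adjusted p = 0.0236) passed as well, and in E-like cells Atox1 did (0.41, adjusted p = 0.0488), by edgeR.

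The share of D/E-like cells with a UMI of a D or E marker differed between the genotypes. After thinning, a UMI of the D marker Siglech was found in 69.6 and 68.3% of these cells in PRMT1FL mice. In PRMT1Cx3cr1-KO mice it was found in 25.02 and 16.6%. For the D marker Tmem119 the shares were 73.8 and 74.5% in PRMT1FL mice, against 61.4 and 56.5% in PRMT1Cx3cr1-KO mice. A UMI of the E marker Nfkbia, an inhibitor of NF-kappaB that NF-kappaB itself induces, was found in 38.8 and 37.5% against 62.3 and 57.5%. In cells without a UMI of Nfkbia, Mt1 stood at 153 and 141 CPM in PRMT1FL mice, against 195 and 164 CPM in PRMT1Cx3cr1-KO mice. In cells with one it stood at 197 and 142 CPM against 440 and 488 CPM. For the E marker Tnfaip2 the levels were 175 and 142 CPM against 318 and 354 CPM in cells without a UMI. Cells with a UMI of Tnfaip2 made up 3.50 and 2.07% of D/E-like cells in PRMT1FL mice, against 31.1 and 35.5% in PRMT1Cx3cr1-KO mice. Mt1 stood in them at 80.6 and 103 CPM against 455 and 379 CPM. The PRMT1FL levels rest on only 41 and 21 cells, against 383 and 467 cells in PRMT1Cx3cr1-KO mice. With a UMI of Tmem119, Mt1 stood at 152 and 138 CPM in PRMT1FL mice, against 337 and 292 CPM in PRMT1Cx3cr1-KO mice. Without one it stood at 220 and 150 CPM against 401 and 437 CPM. For Siglech the levels were 173 and 135 CPM against 232 and 375 CPM in cells with a UMI. In cells without one they were 168 and 154 CPM against 403 and 361 CPM. The shares of cells with a marker do not separate a different mix of cells from a different level of the marker. Their part in the difference of Mt1 was not tested.

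Over all microglia, Mt1 was lower in cells with more UMIs of the D markers after thinning. This held at every step in 3 mice, whereas in PRMT1Cx3cr1-KO mouse 2 the levels ran unevenly from 539 to 461 CPM. In cells with none it stood at 480 and 442 CPM in PRMT1FL mice, against 546 and 539 CPM in PRMT1Cx3cr1-KO mice, and with 4 it stood at 382 and 357 CPM against 399 and 469 CPM. Up to 4 UMIs the ratio of the means of the genotypes stayed between 1.17 and 1.204. With 5 or more UMIs it was 1.73, from 255 and 214 CPM in PRMT1FL mice, against 352 and 461 CPM in PRMT1Cx3cr1-KO mice. These levels differ slightly from those given above for the fit of the same cells, because they lack the library scaling used there. PRMT1FL mice had 1124 and 940 such cells and PRMT1Cx3cr1-KO mice 700 and 571. The D marker Siglech was found in a lower share of D/E-like cells in PRMT1Cx3cr1-KO mice, as given above. The same count of D marker UMIs may therefore take unlike cells in the genotypes, which was not tested.

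**Figure D4:**
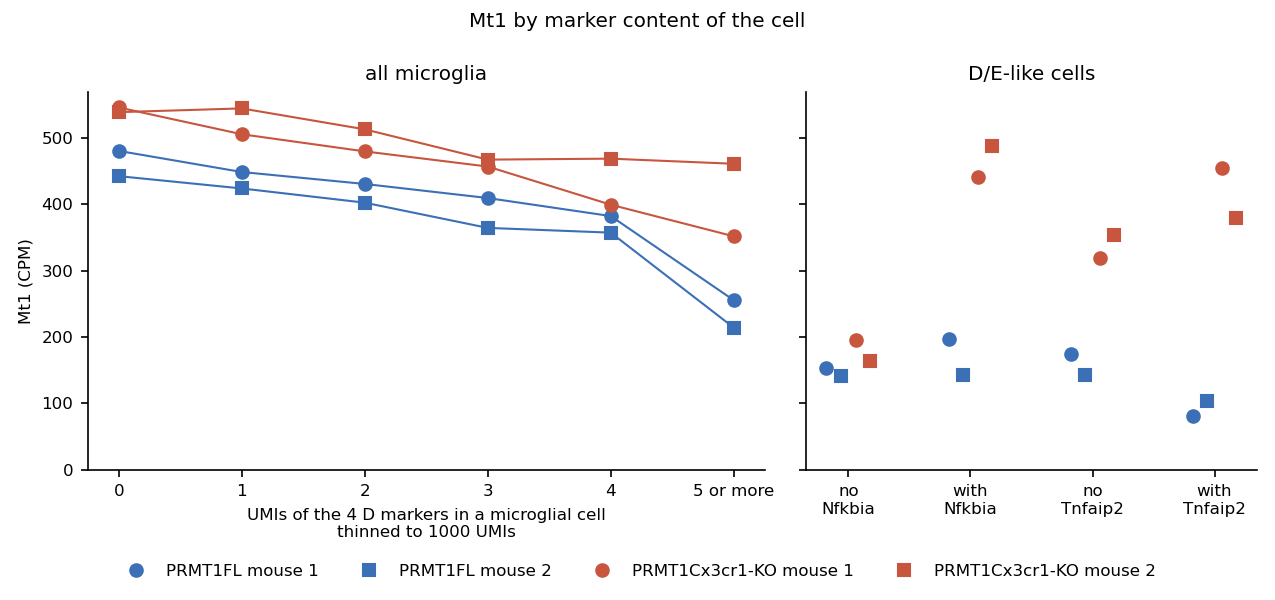
Level of Mt1 in CPM on axes that start at 0, with 1 point per mouse, by the UMIs of the 4 D markers in a thinned microglial cell on the left, and in D/E-like cells with and without a UMI of Nfkbia or Tnfaip2 on the right. The genotypes part most among cells with 5 or more D marker UMIs and among D/E-like cells with a UMI of Nfkbia or Tnfaip2. The PRMT1FL points with a UMI of Tnfaip2 rest on only 41 and 21 cells.

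The sort also held a few cells of other types, in which the same genes stood at other levels. Astrocyte-like cells (169 in all, of which 88 and 68 came from PRMT1FL mice and 6 and 7 from PRMT1Cx3cr1-KO mice) had by far the most metallothionein RNA, with Mt1 at 7083 CPM, Mt2 at 994 CPM and the brain metallothionein Mt3 at 5855 CPM over all mice. By mouse their Mt1 level was 8403 and 5887 CPM in PRMT1FL mice, against 3534 and 5229 CPM in PRMT1Cx3cr1-KO mice. Their Atox1 level, 128 CPM, was below that of microglia in any mouse. Left out of these cells were 97 cells of a cluster led by Ttr and Ptgds, although astrocyte markers were its highest list. Of those, 41 and 28 came from PRMT1FL mice and 21 and 7 from PRMT1Cx3cr1-KO mice. A cluster of 15 cells, also highest in astrocyte markers, was left out as well. Endothelial-like cells (77) had the highest Atox1 and Sod1, at 1380 and 237 CPM, with Slc31a1 at 127 CPM and Mt2 at 92.4 CPM. In oligodendrocyte-like cells (54) Mt1 stood at 815 CPM, and in neutrophil-like cells (75, nearly all from PRMT1FL mice) at 91.5 CPM. These sums come from few cells and were not tested.

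Border macrophage-like and F-like cells had higher Mt1 values in PRMT1Cx3cr1-KO mice. In border macrophage-like cells (45 to 88 a mouse, led by Mrc1, F13a1 and Lyve1) Mt1 measured 806 and 813 CPM in PRMT1FL mice, against 1522 and 1552 CPM in PRMT1Cx3cr1-KO mice. In F-like cells (90 to 164 a mouse, led by H2-Eb1, H2-Aa and Ccr2) it measured 459 and 361 CPM against 922 and 834 CPM. The genotypes did not overlap in either type, but the share of all genes with that pattern in these cells was not counted. Atox1 stood at 512 to 591 CPM in border macrophage-like cells and 598 to 654 CPM in F-like cells over all 4 mice. The microglial marker P2ry12 was also higher in these cells of PRMT1Cx3cr1-KO mice, at 205 and 280 CPM against 628 and 599 CPM in border macrophage-like cells and at 196 and 208 CPM against 422 and 396 CPM in F-like cells. Spp1, the gene of osteopontin, stood at 474 and 858 CPM against 1355 and 1712 CPM in F-like cells. The part of cells or RNA of other types in the Mt1 values was not tested, and no fit was made for these cells.

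Astrocyte RNA in microglial droplets was gauged by genes that microglia lack. Aqp4 stood at 0.0641 to 0.148 CPM and Slc1a2 at 0.416 to 1.24 CPM in microglia, against 914 and 2900 CPM in astrocyte-like cells, while the sum of the 8 astrocyte markers, 44.6 to 66.0 CPM, was mostly Slc1a3. In astrocyte-like cells of PRMT1FL mice there were 1.26 and 1.16 UMIs of Mt1 for each UMI of Mt3, and in microglia 105 to 329. In D/E-like cells this ratio was 12.8 and 31.7 in PRMT1FL mice, against 42.8 and 61.9 in PRMT1Cx3cr1-KO mice, and the astrocyte markers there summed to 171 and 173 CPM against 126 and 113 CPM. For Slc1a2 the D/E-like cells held 7 and 21 UMIs in PRMT1FL mice, against 16 and 6 in PRMT1Cx3cr1-KO mice. The part of astrocyte RNA in the Mt1 difference was not tested. The 7 neutrophil markers summed to 0.688 to 2.87 CPM in microglia, with Elane at 0 in every mouse.

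**Figure D5:**
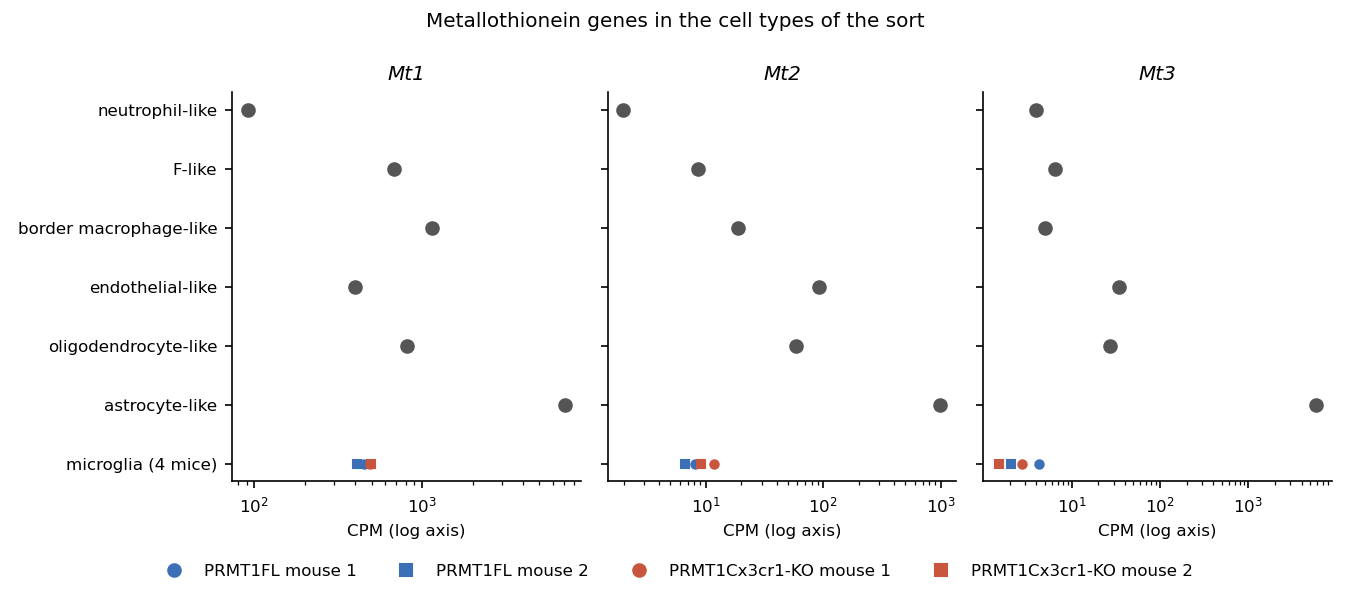
Level of Mt1, Mt2 and Mt3 on log axes in CPM, with 1 point per mouse for microglia and 1 grey point per other cell type for the sum of its cells over all mice. Astrocyte-like cells lie highest for all 3 genes, at 7083 CPM for Mt1, 994 CPM for Mt2 and 5855 CPM for Mt3.

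Other genes of metal handling were counted by list. In microglia no gene of the 8 lists passed the test, with median log2 fold changes from -0.05 for the 7 tested copper transporters and reductases to 0.27 for the 7 glucocorticoid-responsive genes, beside -0.00 over all genes tested. Steap3, a metal reductase, stood at 1.10 and 1.16 CPM against 1.52 and 2.15 CPM (0.71, adjusted p = 0.154 from edgeR), and Slc25a3, the carrier that brings copper into mitochondria, at 480 to 508 CPM in the 4 mice. Of the COMMD genes Commd8 had the lowest p, at 101 and 103 CPM against 120 and 136 CPM (0.33, adjusted p = 0.0994 from edgeR). Slc39a14, an importer of zinc, manganese and iron, stood at 17.5 and 15.2 CPM against 21.8 and 24.9 CPM (0.52, adjusted p = 0.0795 from edgeR).

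In D/E-like cells, where 18.9% of all genes were called, the members called above were 1 of 3 tested metallothioneins, 1 of 5 copper transporters and reductases and 2 of 6 chaperones and copper enzymes. Further, 3 of the 17 metal-responsive factor and zinc transporter genes were called higher and 1 lower. Those called higher were the zinc importers Slc39a4 (3.60 and 3.75 CPM against 8.40 and 8.33 CPM, log2 fold change 1.18) and Slc39a10 (0.57) and the zinc exporter Slc30a1 (0.74), itself a target of Mtf1. Slc30a9 was called lower (-0.36), and Mtf1 did not pass, at 12.6 and 17.8 CPM against 20.5 and 23.0 CPM (0.52, adjusted p = 0.0746 from edgeR). Of 14 COMMD and partner genes 2 were called higher (Commd9 at 0.69 and Commd4 at 0.38) and 1 lower (Commd3, -0.37). Of the 8 mitochondrial copper delivery genes Cox17, which carries copper to cytochrome oxidase, was called lower (-0.31), at 173 and 159 CPM against 126 and 142 CPM. Of the 6 glucocorticoid-responsive genes Sgk1 (710 and 743 CPM against 1237 and 1108 CPM, 0.69) and Fkbp5 (0.37) were called higher, while Tsc22d3 gave -0.17. The median log2 fold change of these 6 genes was -0.08, and 3 of them had a positive value. Of the 8 lipoylation genes Gcsh, a lipoylated protein of glycine cleavage, was called higher (0.57). Outside D/E-like cells the calls were few: Commd8 was higher in Il12b-led, Mmp12-led and Ube2c-led cells, Commd9 in Ube2c-led cells, Sgk1 in Mmp12-led and Ube2c-led cells, Slc39a14 in Gpnmb-led cells, and Tsc22d3 in Gpnmb-led and interferon-like cells.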

How the data were processed

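Single-cell RNA libraries (10x Genomics) of CD45+CD11b+ brain cells from 4 mice were analysed. The authors made the deposited files with Cell Ranger 3.1.0 on mm10, and Seurat 3.2.0 and Scanpy 1.5.2 are named in the submitters' processing notes. The deposited values are raw UMI counts per gene and barcode. How reads shared by Mt1 and Mt2 were divided is not given in the sources used here.

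A cell was kept with between 200 and 6000 genes and no more than 10% of UMIs from mitochondrial genes (40869 in all), and 39592 were counted as microglia. Cells were clustered with scanpy 1.11.5 (2000 variable genes, 20 principal components, 15 neighbours, Leiden resolution 0.3), leaving out 80 members and listed genes and 749 genes that differed between genotypes. Clusters were named by marker lists. Doublets were marked by score (3390 cells) and left out only in an alternative. UMIs were summed per mouse and state, since the mouse is the replicate, and tested with edgeR 4.0.16 (quasi-likelihood, TMM factors, R 4.3.3), with Benjamini-Hochberg adjustment over all genes tested and a threshold of 0.05. CPM of microglia and states carry the TMM factor, and those of other cell types, marker genes and marker-sorted cells do not. The difference of a genotype effect between a state and the other microglia was tested with limma 3.58.1 on the differences within each mouse. With 2 mice against 2 the smallest 2-sided exact permutation p is 0.333, so none is given. DESeq2 1.42.0 was an alternative. The fits were tested on simulated data, drawn with a common dispersion for all genes and independently for the D/E-like cluster and the other microglia. Only genes with a mean of at least 100 UMIs a mouse were changed, so the shares do not cover genes of fewer UMIs. Of genes changed 1.5-fold, edgeR called 74% in microglia and 82% in D/E-like cells, against 0% for the limma test in D/E-like cells. Of genes changed 2-fold these shares were 100, 100 and 34%. All 9 members were named, and of each list the 2 to 4 genes with the lowest p or highest level. The members and lists were chosen with earlier results of these data known. Counting error alone is covered by UMI depth.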

Additional observations from a re-analysis of the deposited data

Results flagged for a closer look

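The difference between the genotype effect on Mt1 in D/E-like cells and that in all other microglia was 1.05 on the log2 scale (SE 0.12, adjusted p = 0.0205 from limma). It stands here because the same contrast gave unlike effects in different cells by a test of the difference itself. In other clusterings and in cells taken by D markers it did not pass, as the values in the next part show, and the test called at most 1.02% of all genes there. On simulated sums of the first D/E-like cluster the same test called 34% of genes changed 2-fold. The cluster and the other microglia were drawn independently there, so what the test misses in these data is not known.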

How the results depend on the processing

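In microglia the count of called members was 0, beside 0.789% of all genes. It was 1 without a filter on low counts, and it moved with either PRMT1Cx3cr1-KO mouse left out. Inside the states 5 member values were called, from 9 members in 7 states, beside 0.358 to 18.9% of all genes by state. That count moved with either PRMT1FL mouse left out. The shares of all genes called without the filter or with a mouse left out are not given here, so these shifts cannot be set against them. In D/E-like cells 4 members were called, beside 18.9% of all genes, and the count moved without PRMT1FL mouse 2. It was 2 with cells thinned to 1000 UMIs, beside 845 of 8783 genes, and 2 with DESeq2, beside 6.73% of all genes. With random seeds 1, 3, 4 and 5 it was 1, 2, 1 and 2, and with seed 2 Mt1, Slc31a2 and Atox1 were called. Of all genes 7.31, 13.4, 11.4, 11.2 and 15.5% were called with seeds 1 to 5. The count of members with a higher share of cells moved from 3 to 6 on thinning, beside 17.4% and 29.9% of all tested genes. The log2 fold change of Mt1 in D/E-like cells was -0.11, 0.18 and 0.15 with seeds 1, 3 and 4, and 1.11 to 1.35 with a mouse left out. Its difference from other microglia was -0.26, 0.29, 0.011, -0.045 and 0.40 with seeds 1 to 5 and 0.65 in cells taken by D markers, where the limma test called 0.0 to 1.02% of all genes. The cause of these shifts was not tested.

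Of 239 values of single members under alternatives, 186 kept direction and call, 22 lost a call, 8 gained one and 23 changed sign. The 239 leave out Mt1 in D/E-like cells and its difference from other microglia, which are given above. Among those left out, Mt1 changed sign with seed 1 (-0.11) and its difference with seeds 1 (-0.26) and 4 (-0.045). In microglia the values of changed sign were Mt2 over all cells (-0.11), Slc31a1 thinned (0.076) and with a mouse left out (-0.14 to 0.017), and Slc31a2 with doublets left out (-0.0043), thinned (-0.031) and with a mouse left out (-0.016 to 0.064). For Ccs they were 0.0010 without a filter, 0.028 over all cells, 0.0023 with doublets left out, 0.0091 thinned, -0.021 to 0.011 with a mouse left out and 0.0042 with equal weight of states. In D/E-like cells they were Slc31a1 with a mouse left out (-0.029 to 0.33) and with seeds 3 (-0.029) and 5 (-0.0037), Commd1 thinned (-0.0015), and Atp7a with a mouse left out (-0.0049 to 0.33), thinned (-0.20), with seeds 1 (-0.049) and 3 (-0.046) and by D markers (-0.11).

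The mice of the 2 genotypes share only a replicate number: deviations of same-numbered mice correlated at -0.01 over 13808 genes. With the replicate number as a block, 0 members were called in microglia and 5 in D/E-like cells, beside 25.3% of all genes, where Mt2 was added (1.63, adjusted p = 0.00537 from edgeR). The seeds, the cells taken by D markers, and thinning, doublet removal, DESeq2 and the block in D/E-like cells were added after seeing the data. Mt2 in D/E-like cells, with 2 to 31 UMIs a mouse, is limited by depth.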
